A study of Rattus norvegicus with 3 samples.

Results

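Erythroid cells are the precursors of red blood cells and the young red cells that still hold RNA. In the rat cochlear libraries they were taken as the barcodes, each of which tags the RNA caught in 1 droplet, in which the haemoglobin genes Hbb, Hba-a2, LOC103694857 and LOC689064 together held 10% or more of all UMIs (unique molecular identifiers, each standing for 1 captured RNA molecule), with no limit on the number of genes found. The rule kept 602 of the 34927 deposited barcodes. Since these barcodes were selected on their haemoglobin UMIs, the haemoglobin values below are a description of them and not a result. The cells came from the dissociated cochlear basal membrane of untreated Sprague-Dawley rats at postnatal day 1 (P1), 7 (P7) and 14 (P14), and 40 rats were pooled into 1 library for each stage. Although the labels speak of greater epithelial ridge cells, all cells of the digested membrane were loaded. Visible blood was removed, red cells were lysed and dead cells were depleted before capture, so every count below is of what was left after these steps. With 1 library per stage no test was possible, stage and library cannot be told apart, and all ranges in parentheses are exact 95% intervals that cover counting error only.

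A red cell precursor fills itself with haemoglobin, a tetramer of alpha-type and beta-type globin chains that each carry a haem. Alas2 catalyses the first and limiting step of haem synthesis in these cells, and Ahsp binds free alpha-globin until it pairs with a beta chain. The last divisions are followed by loss of the nucleus, and the resulting reticulocyte still holds messenger RNA, mitochondria and ribosomes, which it clears as it becomes a mature red cell. Rat red cells have no nucleus.

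The globin genes and Alas2 are driven from promoters whose short words are bound in erythroid cells by GATA1 and KLF1. The 250 bases before the start of the genes that define the cells, of which 3 of the 4 genes of the rule were found in RefSeq, are given here for build GRCr8, 5′ to 3′ along the gene; LOC689064 is the RefSeq gene Hbb-bs. Capitals mark 4 words of the GATA type (AGATAA or TGATAA, besides AGATAG or TGATAG), the CACCC box that factors of the KLF family bind, the CCAAT box and the word ATAAA near the start. Each word was searched on both strands, and matches that touch run together.
Hba-a2, chr10:15829139-15829388, minus strand: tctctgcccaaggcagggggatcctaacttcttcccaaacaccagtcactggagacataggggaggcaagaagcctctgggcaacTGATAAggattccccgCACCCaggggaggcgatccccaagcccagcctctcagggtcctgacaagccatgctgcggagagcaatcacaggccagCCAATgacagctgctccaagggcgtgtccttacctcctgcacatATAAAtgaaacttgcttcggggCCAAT
Hbb, chr1:167663722-167663971, minus strand: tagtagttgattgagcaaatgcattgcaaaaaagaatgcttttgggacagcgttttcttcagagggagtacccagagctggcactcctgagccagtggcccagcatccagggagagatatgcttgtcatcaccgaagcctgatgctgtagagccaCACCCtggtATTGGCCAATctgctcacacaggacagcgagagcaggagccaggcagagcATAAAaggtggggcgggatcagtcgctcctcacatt
LOC689064, chr1:167631631-167631880, minus strand: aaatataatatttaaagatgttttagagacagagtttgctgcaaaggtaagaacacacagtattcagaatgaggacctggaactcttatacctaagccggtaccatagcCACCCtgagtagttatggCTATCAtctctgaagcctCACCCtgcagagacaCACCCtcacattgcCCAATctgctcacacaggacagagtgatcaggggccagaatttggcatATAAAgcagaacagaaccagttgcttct
Alas2, chrX:22895200-22895449, plus strand: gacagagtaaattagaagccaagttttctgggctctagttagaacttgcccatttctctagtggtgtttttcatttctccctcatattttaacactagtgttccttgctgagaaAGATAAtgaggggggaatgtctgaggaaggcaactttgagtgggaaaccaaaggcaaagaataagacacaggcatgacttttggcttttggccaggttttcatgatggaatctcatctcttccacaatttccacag
A GATA word stood 165 bases before the start of Hba-a2 and 136 bases before that of Alas2, and its reverse complement began 123 bases before the start of LOC689064. No GATA word was found in the Hbb window. At least 1 of the 4 GATA words was present in 27.0% of the 33469 rat promoter windows of this length, CACCC in 49.2%, CCAAT in 34.0% and ATAAA in 39.3%. Each of the 3 globin windows held the CACCC box, the CCAAT box and the ATAAA word, and the Alas2 window held none of these. These matches are a description of the letters in the window.

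Haemoglobin-rich barcodes were found at every stage, and they made up the largest share of the P7 library. At P1, 122 of 14068 barcodes passed the rule (0.867%, 0.721 to 1.03). At P7, 384 of 14501 barcodes passed (2.65%, 2.39 to 2.92). At P14, 96 of 6358 barcodes passed (1.51%, 1.22 to 1.84). The 3 intervals did not overlap, though they leave out any difference between animals or dissociations. All haemoglobin UMIs were 0.362% of the P1 library, 1.71% of the P7 library and 1.48% of the P14 library, out of 114285848, 101264868 and 12616390 UMIs. The selected barcodes held 82.7% of the haemoglobin UMIs at P1, 95.6% at P7 and 93.4% at P14.

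Most of the selected barcodes were filled with haemoglobin RNA well past the limit. The haemoglobin share ran from 10.2% through a median of 79.0% to 93.7% at P1. It ran from 10.04% through 82.6% to 94.0% at P7, and from 10.6% through 76.9% to 94.0% at P14. A share of 50% or more was found in 88 of 122 barcodes at P1, 313 of 384 at P7 and 63 of 96 at P14. Near the limit the barcodes were few. At P1 the last 3 barcodes left out had 9.48%, 9.54% and 9.61%, and the first 3 kept had 10.2%, 10.5% and 10.9%. At P7 these were 9.68%, 9.69% and 9.73% against 10.04%, 10.5% and 10.6%, and at P14 they were 6.64%, 8.84% and 9.77% against 10.6%, 10.6% and 10.9%. Shares between 5% and 10% occurred in 15 barcodes at P1, 18 at P7 and 5 at P14, and shares between 10% and 20% in 17, 14 and 11. The libraries shared 60 barcode sequences between P1 and P7, 19 between P1 and P14 and 25 between P7 and P14, and 1 barcode was haemoglobin-rich in both P1 and P7.

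**Figure D1:**
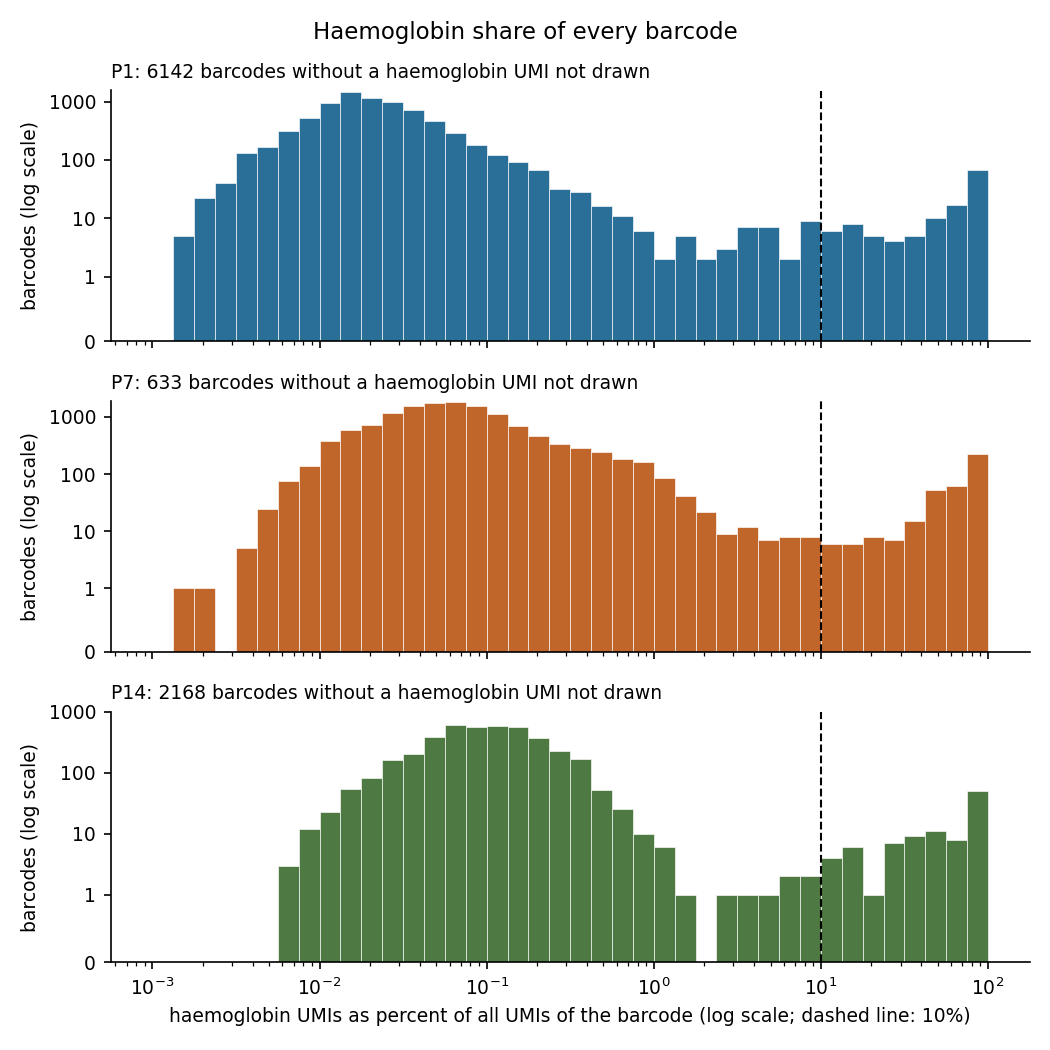
Number of barcodes (log scale) by the percent of their UMIs on the 4 haemoglobin genes (log scale), with 1 panel per library and a dashed line at the limit of 10%. In each library the largest group lies below 1%, the bins between 1% and 10% are thin, and a second group lies above 50%; the 6142 barcodes at P1, 633 at P7 and 2168 at P14 without a haemoglobin UMI are not drawn.

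The limit of more than 500 genes, which the methods state as a filter, drops most of these barcodes. It drops 82 of 122 at P1 (67.2%, 58.1 to 75.4), 312 of 384 at P7 (81.25%, 77.0 to 85.0) and 51 of 96 at P14 (53.1%, 42.7 to 63.4), or 445 of 602 in all (73.9%). Among the other barcodes the same limit drops 3.91% at P1, 7.63% at P7 and 15.6% at P14. The haemoglobin-rich barcodes were 13.1% of all P1 barcodes with 500 genes or fewer, 22.5% of those at P7 and 4.97% of those at P14. The limit of fewer than 5000 genes drops 2 more at P1, and that of 25% mitochondrial UMIs applies to 4 at P7. With every limit applied here, 38 barcodes are left at P1, 71 at P7 and 45 at P14, so that 448 of 602 (74.4%) fall out. The kept ones are 0.297%, 0.564% and 0.852% of the cells that pass at P1, P7 and P14. After filtering the share is thus highest at P14, while before filtering it is highest at P7. The paper counts 34927 cells as passing its quality control, which is every deposited barcode. These counts therefore show what the stated limits would drop, and not that the study left these barcodes out. The lowest number of UMIs was 500 in each library, so smaller haemoglobin-rich barcodes are not in any count.

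The barcodes with 500 genes or fewer had a median of 2005.5 UMIs at P1, 4293 at P7 and 1861 at P14, against 10103.5, 11024.5 and 4654 in the haemoglobin-rich barcodes with more genes and 6494, 6522 and 1463.5 in the barcodes outside the rule. The median number of UMIs on genes other than the 4 of the rule was only 261, 528 and 201 in them. Their median gene number was 167.5, 263 and 115. The haemoglobin share in them had a median of 87.0% at P1, 86.3% at P7 and 90% at P14, with the lowest at 13.8%, 18.3% and 48.5%. The barcodes with more than 500 genes had a median share of 26.9%, 45.4% and 38.5%, with 2315.5, 2207 and 1393 genes. The haemoglobin share was thus higher at the median below the limit than above it in each library, with overlapping ranges. Above the limit the median number of UMIs outside the 4 genes was 7203.5, 6048 and 2873. The split by genes goes with the amount of other RNA, so this difference in share is a description and not a result.

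**Figure D2:**
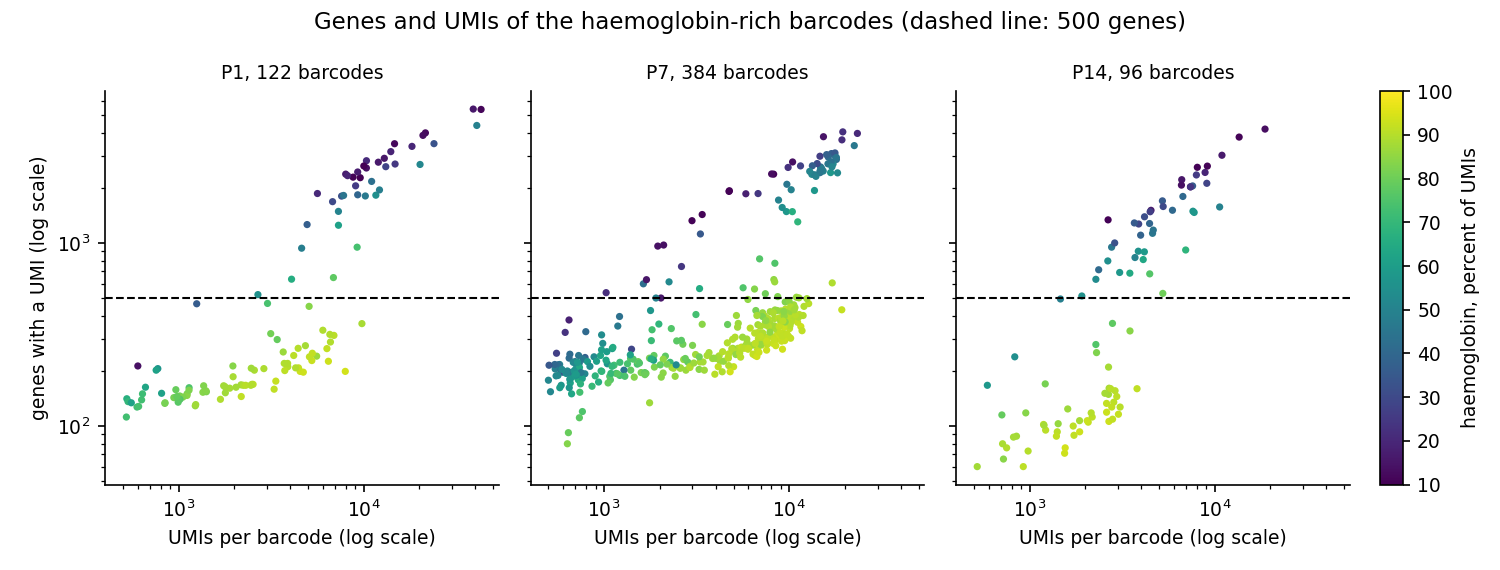
Genes with a UMI against UMIs (both log scale) for each haemoglobin-rich barcode, with 1 panel per library, the colour giving the haemoglobin share and the dashed line the limit of 500 genes. In each library a flat band of barcodes with mostly high shares lies below the line (82, 312 and 51 barcodes), and a rising band with lower shares lies above it (40, 72 and 45 barcodes).

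Of the markers given for erythroid cells, Hbb and Hba-a2 are part of the rule, so that only Alas2 can check the name, and it was far higher in these barcodes than in the others of each library. An exception at P7 is a group of 52 barcodes with 0 Alas2 UMIs, described with the globin genes below. Levels here are in counts-per-million (CPM) of the UMIs outside the haemoglobin genes, summed over barcodes, and ratios are log2 ratios to the other barcodes of the same library with 10 CPM added to each, which understates the ratios of low genes. Alas2 stood at 1190 CPM (1086 to 1302) at P1, 5247 CPM (5067 to 5431) at P7 and 1553 CPM (1379.5 to 1743) at P14, against 0.996, 0.839 and 1.47 CPM in the other barcodes. At least 1 Alas2 UMI was present in 63.9% of the haemoglobin-rich barcodes at P1, 68.0% at P7 and 82.3% at P14, against 0.215%, 0.560% and 0.224% of the others. In barcodes with this few other UMIs, a barcode without an Alas2 UMI cannot be read as lacking the gene.

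Of the 20 genes outside haemoglobin with the largest mean log2 ratio over the 3 libraries, Alas2 (log2 ratios of 6.77, 8.92 and 7.09 at P1, P7 and P14) and Ahsp (6.21, 7.84 and 6.46) led. Next came Lgals5, a galectin found in rat reticulocytes and red cells, with 4.91, 7.54 and 6.96, and Slc4a1, the band 3 anion exchanger of the red cell membrane, with 3.73, 5.71 and 6.79. The list went on with Cd52, Tmcc2, Car2, which encodes carbonic anhydrase 2, and Rhd, which encodes a Rhesus blood group protein. Tent5c, Ybx3, Rbm38, Creg1, LOC100912564, Isca1, Fech, Bpgm, Mkrn1, Hagh, Cdc25b and Gpx1 completed it. All 20 had a log2 ratio of 1 or more in each of the 3 libraries, against 4.39% of the 8359 genes compared at P1, 2.83% of 7984 at P7 and 4.78% of 9569 at P14, though the list was picked for these ratios. When the list was drawn without P1, 16 of the 20 genes stayed in it, against 19 without P7 and 18 without P14.

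Read by function, the erythroid lists held a larger share of higher genes than all genes compared at every stage. Of the 90 genes in the 6 erythroid lists 89 were in the matrices. At P1, 73 of them reached 10 CPM in either set and 44 had a log2 ratio of 1 or more (60.3%, with a median ratio of 1.16 against -0.06 over all genes compared). At P7 it was 52 of 75 (69.3%, median 1.73 against -0.25), and at P14 it was 63 of 86 (73.3%, median 1.90 against -0.11). These shares stand beside the 4.39%, 2.83% and 4.78% of all genes, which also belong beside the counts of each single list below. None of the erythroid genes at P1 had a log2 ratio of -1 or less, against Gata2 at P7 and Slc2a1 at P14. With the barcodes of 500 genes or fewer alone, the counts were 55 of 72, 60 of 80 and 56 of 75, against 13.1%, 4.64% and 13.4% of all genes. With 50 CPM added in place of 10, they were 20 of 73, 37 of 75 and 42 of 86, so that the majority was lost at every stage. These were 27.4%, 49.3% and 48.8% of the erythroid genes, against 1.292%, 1.503% and 1.651% of all genes at this setting. With all UMIs as the total, haemoglobin included, the erythroid counts were 19 of 65, 29 of 67 and 48 of 83, against 1.41%, 0.93% and 1.52% of all genes. Haemoglobin was 46.2%, 72.7% and 48.2% of the UMIs of the haemoglobin-rich barcodes.

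Haem is built from glycine and succinyl-CoA in a chain of enzymes that starts and ends in the mitochondrion. Of the 12 genes of haem synthesis, 6 of 10 that reached the level were higher at P1, 7 of 11 at P7 and 10 of 12 at P14. Fech, which inserts iron into the ring in the last step, had log2 ratios of 2.45, 4.38 and 3.82. Cpox, an enzyme late in the chain, had 1.31, 0.55 and 3.28. Cpox counts were 17 UMIs at P1, 19 at P7 and 79 at P14, in 9.84%, 4.43% and 20.8% of the barcodes. Thus Alas2 was far above the other barcodes at each stage, while Cpox had its largest ratio at P14.

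Iron enters the precursor through the transferrin receptor Tfrc and reaches the mitochondrion through Slc25a37 (mitoferrin). Of the 12 genes of haem and iron handling, 6 of 10 were higher at P1, 5 of 9 at P7 and 6 of 11 at P14. Tfrc was at 40.2 CPM (23.0 to 65.2) at P1, 4.89 CPM (1.01 to 14.3, 3 UMIs) at P7 and 503 CPM (407 to 616) at P14, against 13.8, 5.44 and 68.9 CPM in the other barcodes. Slc25a37 had log2 ratios of 1.67, 3.14 and 4.29. Glrx5, which takes part in making iron-sulphur clusters, had 1.59, 3.15 and 3.27. The ferritin subunit Ftl1 had 1.09, 2.38 and 1.11, and Fth1 had 0.92, 1.73 and 0.21.

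The red cell membrane hangs on a spectrin skeleton that band 3 and the Rh complex anchor. Of the 19 listed membrane and skeleton genes in the matrices, 8 of 14 were higher at P1, 12 of 15 at P7 and 15 of 18 at P14. Rhag, the Rh-associated glycoprotein, had 4 UMIs at P1, 12 at P7 and 52 at P14, with log2 ratios of 1.00, 1.55 and 4.43. Epb42, a protein that links band 3 to the skeleton, had 3, 32 and 26 UMIs, which reached the level of 10 CPM at P7 and P14 with ratios of 2.57 and 3.65. Tmcc2 had 3.60, 6.21 and 5.25, and the Rhesus gene Rhd had 4.03, 5.77 and 4.03. Slc2a1, the glucose transporter GLUT1, stood at 2.74 at P1, 0.72 at P7 and -1.42 at P14, from 84, 31 and 16 UMIs; it is also a gene of brain-type endothelial cells, and the part of endothelial RNA in its values was not tested.

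The next list held 12 red cell enzymes and antioxidant proteins, of which 7 of 11 were higher at P1, 8 of 11 at P7 and 9 of 12 at P14. Car2 had log2 ratios of 4.80, 5.38 and 4.71, and Bpgm, which makes the 2,3-bisphosphoglycerate that lowers oxygen affinity, had 1.40, 3.86 and 4.64. Car1 had 6, 75 and 104 UMIs with ratios of 1.32, 3.70 and 2.77. Gpx1, which reduces hydrogen peroxide, had 2.49, 3.84 and 2.79, and the peroxiredoxin Prdx2 had 1.56 and 2.84 at P1 and P7, with 3401 CPM against 387 CPM at P14. Sod1 did not follow, with 0.14, -0.34 and -0.04.

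Transcription factors of the erythroid lineage were found at low counts. Of 12 genes, 7 of 9 were higher at P1, 5 of 8 at P7 and 7 of 11 at P14. Klf1, which switches on adult beta-globin, had 19 UMIs at P1, 125 at P7 and 40 at P14, with log2 ratios of 2.42, 4.29 and 3.63. Gata1, which encodes a factor that binds the GATA words, had 0 UMIs in every barcode of the 3 libraries, so it gives no information here. The erythropoietin receptor gene Epor had 2, 5 and 8 UMIs, and reached the level only at P14, with a ratio of 2.00. Lyl1 had 2.53, 3.52 and 1.94, and Gata2, a factor of earlier progenitors and of other cells, had 0.61, -1.47 and -0.97.

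Genes of late maturation and clearance were next. Of 22 genes, 10 of 19 were higher at P1, 15 of 21 at P7 and 16 of 22 at P14. Bnip3l, which removes mitochondria from reticulocytes, had log2 ratios of 0.49, 2.45 and 1.95, and the ubiquitin ligase Mkrn1 had 1.58, 4.70 and 3.41. Hemgn had 2.25, 3.24 and 3.33, and Rsad2, an interferon-induced gene, had 2.41, 4.76 and 5.13. Alox15, the 15-lipoxygenase of reticulocytes, was in none of the lists and was picked after its values were seen. It had 55 UMIs at P1, 2690 at P7 and 679 at P14, or 138 CPM (104 to 180), 4382 CPM (4218 to 4551) and 3637 CPM (3368 to 3921), and was found in 9.02%, 42.2% and 72.9% of the haemoglobin-rich barcodes.

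Of the cell cycle genes, most had a log2 ratio of 1 or more at P14 and few at P1 or P7, a difference between libraries that was not tested. Of the 10 proliferation genes, 1 of 9 was higher at P1, 0 of 10 at P7 and 8 of 10 at P14. Of all genes compared, 4.39%, 2.83% and 4.78% were higher, and lists this short cannot be told from such shares at P1 and P7. The medians of the list were 0.02, -0.69 and 1.40. Its only higher gene at P1 was Ube2c, with a log2 ratio of 1.59, and Ube2c had the highest ratio of the list at P7 too, 0.74. At P14 the largest was Mki67, which marks dividing cells, with 2.18, followed by Ube2c with 2.01 and Ccnb1 with 1.86. Mki67 was at 482 CPM (388 to 592) in the P14 haemoglobin-rich barcodes and at 98.3 CPM in the others. All 90 Mki67 UMIs at P14 lay in barcodes with more than 500 genes, while the 51 barcodes below the limit had 0, which allows up to 274 CPM at 3 counts. Summed over the list, barcodes below the limit were at 1747 CPM (1288 to 2316) at P1, 863 CPM (734 to 1008) at P7 and 1006 CPM (502 to 1799) at P14, from 48, 159 and 11 UMIs. Barcodes above it were at 521 CPM, 384 CPM and 2412 CPM, and those outside the rule at 535 CPM, 649.97 CPM and 733 CPM. At P1 the summed list was thus higher in the barcodes below the limit than in those outside the rule, and at P14 it was highest above the limit. Below the limit much of the sum was Ube2c, with 22 of the 48 UMIs at P1, 112 of 159 at P7 and 9 of 11 at P14. At P1 Top2a, Ccna2 and Aurkb had 0 UMIs there, and Mki67 had 7, in 1.22% of these barcodes.

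Levels per UMI outside haemoglobin differed strongly between haemoglobin-rich barcodes below and above the limit of 500 genes. Alas2 was at 10845 CPM (9648 to 12149) below it and 475 CPM (407 to 550.3) above it at P1. At P7 these levels were 13156 CPM (12637 to 13690.3) and 1855 CPM (1728 to 1988), and at P14 they were 10787 CPM (8929 to 12918) and 979 CPM (838 to 1136). Below the limit the interval of P14 overlaps those of P1 and P7, of which P7 is the higher, while the sums over all haemoglobin-rich barcodes lie further apart. Ahsp was at 5058 CPM below and 579.9 CPM above the limit at P1, 6979.6 and 959 CPM at P7, and 9690.1 and 6929 CPM at P14. Alox15 was at 1456 and 40.5 CPM at P1, 11104 and 1499 CPM at P7, and 33549.7 and 1775 CPM at P14. These levels are taken over the RNA outside haemoglobin, and the split by genes goes with how much of it a barcode holds. They do not show that a barcode below the limit holds more Alas2. At least 1 Alas2 UMI was found in 61.0%, 64.4% and 76.5% of the barcodes below the limit at P1, P7 and P14. Above the limit these shares were higher, at 70%, 83.3% and 88.9%.

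At P14, nearly all UMIs of some genes of earlier precursors lay above the limit, where most of the other RNA lay too. Rhag had 51 of its 52 UMIs there, Cpox 78 of 79 and Tfrc 92 of 94. Tfrc was present in 55.6% of the 45 barcodes above the limit and Slc4a1 in 84.4%, against 1.96% and 43.1% of the 51 below it. At P1 the barcodes above the limit held 3 of 4 Rhag UMIs, 11 of 17 Cpox UMIs and 12 of 16 Tfrc UMIs, and at P7 they held 4 of 12, 12 of 19 and 1 of 3. Shares of barcodes with a UMI depend on depth, and the P14 barcodes below the limit had only 10939 UMIs outside haemoglobin together, against 175778 above it. As levels, Rhag was at 91.4 CPM (2.31 to 509) below and 290.1 CPM (216 to 381) above the limit, and Tfrc at 183 CPM (22.1 to 660.5) and 523 CPM (422 to 642), so that the intervals overlap and a difference was not detectable at this depth.

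**Figure D3:**
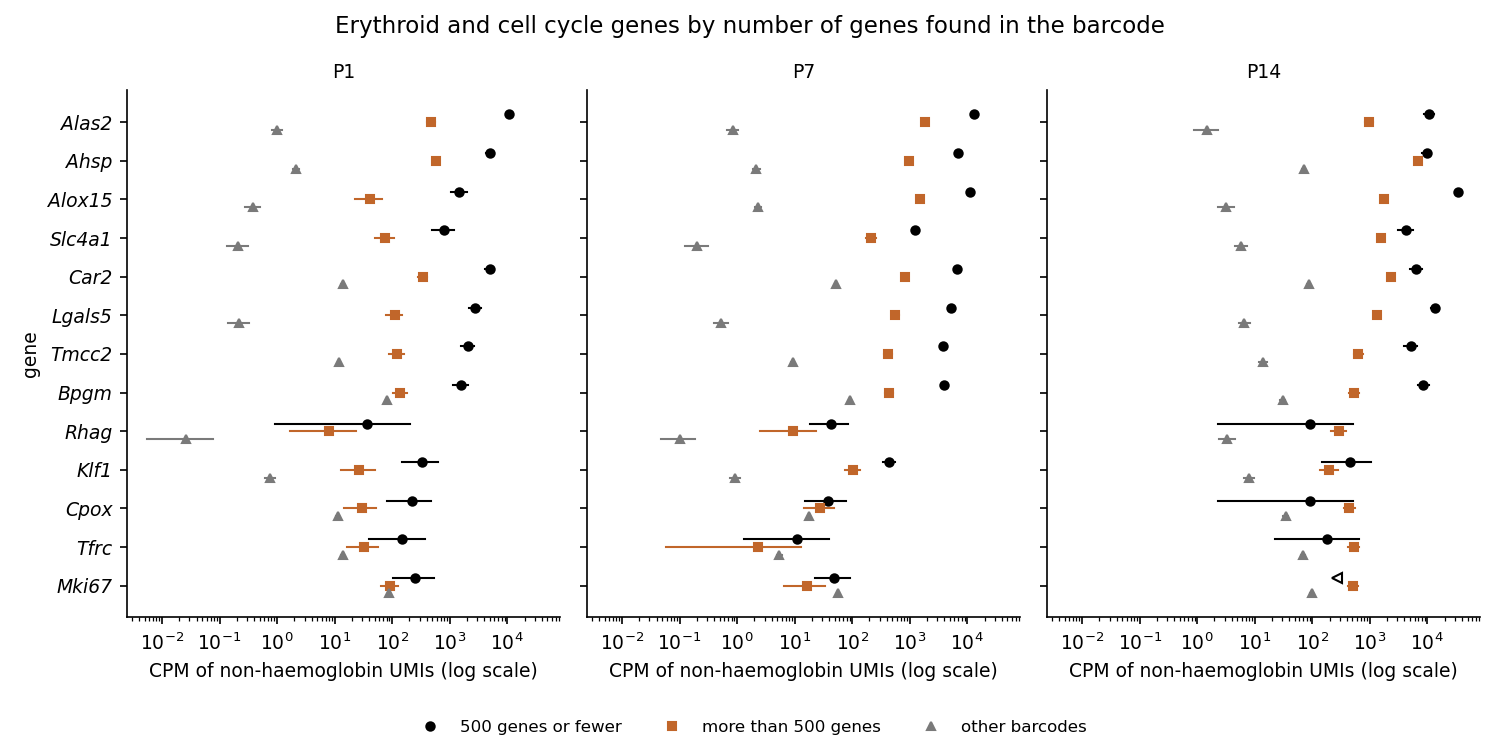
Levels of 12 erythroid genes and of the cell cycle gene Mki67 in CPM of UMIs outside haemoglobin (log scale) for haemoglobin-rich barcodes with 500 genes or fewer, those with more, and all other barcodes, with 1 panel per library and bars for exact 95% Poisson intervals. An open arrowhead is the limit that a count of 0 allows. Per UMI outside haemoglobin, Alas2 stands higher below than above the gene limit in each library (10845, 13156 and 10787 CPM). The levels of Ahsp above and below the gene limit lie close together at P14 (6929 and 9690.1 CPM).

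Markers of other cell types were found on both sides of the limit. Counts of barcodes with several markers follow the number of genes found, by which the barcodes were split, and are given as a description. No doublets were removed here, and no doublet caller was run. Of the barcodes above the limit, 32 of 40 at P1, 59 of 72 at P7 and 38 of 45 at P14 had 3 or more markers of another cell type, against 2 of 82, 34 of 312 and 4 of 51 below it. Of the mesenchyme list (with Otor, Coch and collagens among its 8 genes), 3 or more were found in 22 of 40, 48 of 72 and 32 of 45. These shares were 55%, 66.7% and 71.1%, against 63.9%, 72.7% and 51.0% of the barcodes outside the rule. Its summed level was 5457 CPM at P1, 11579 CPM at P7 and 13449 CPM at P14 above the limit, 2584, 3365 and 5576 CPM below it, and 7551, 10097 and 12092 CPM in the other barcodes. The mesenchyme level was thus lower below the limit than above it in each library. Some other lists were higher below it at some stages. The macrophage list at P14 was at 3108 CPM (2152 to 4343) below the limit, from 34 UMIs, at 461 CPM above it and at 341 CPM in the other barcodes. The neuron list at P1 was at 1346 CPM below, from 37 UMIs, and 135 CPM above, against 1209 CPM in the others. For the glia list at P14 the intervals overlap, with 3382 CPM (2382 to 4662) below and 2475 CPM (2248 to 2719) above, against 7098 CPM in the others. Below and above the limit, the glia list was at 437 and 510 CPM at P1 and at 1813 and 2081 CPM at P7. The endothelial list at P14 was at 1280 CPM (700 to 2147) below, from 14 UMIs, and 427 CPM (336 to 535) above, against 1233 CPM in the others. The cochlear epithelium list was at 291 and 10.8 CPM at P1, from 8 and 4 UMIs, and at 136 and 72.2 CPM at P7. At P14 it had 0 UMIs below the limit and 6 above. The macrophage list was at 109 and 979 CPM at P1 and at 353 and 326 CPM at P7.

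The P1 barcodes above the limit also held endothelial RNA. All 7 endothelial markers had UMIs there, at 1877 CPM (1740.4 to 2022) together against 196 CPM in the other barcodes. Of the 40 barcodes, 9 (22.5%) had 3 or more of them, against 1.77% of the others. Cldn5, a tight junction gene, was at 912 CPM and Cdh5, the vascular cadherin, at 286 CPM, against 96.8 and 22.5 CPM in the others. Below the limit the endothelial list was at 364 CPM (175 to 669), from 10 UMIs. At P7 and P14, 3 of 72 (4.17%) and 4 of 45 (8.89%) barcodes above the limit had 3 or more endothelial markers. In the other barcodes these shares were 1.84% and 19.1%, so that the P14 share was the lower one. The B cell and T and NK cell lists had 0 UMIs at P1 and P7, and the neutrophil list had 0 at P1. At P7 the neutrophil list was at 189 CPM (149.7 to 234) above the limit, from 81 UMIs, against 10.4 CPM in the others. At P1 the macrophage list was at 979 CPM (881 to 1085) above it against 276 CPM. Only 1 of 72 barcodes had 3 or more neutrophil markers there, and 1 of 40 had 3 or more macrophage markers. In the others these shares were 0.0354% and 1.16%. How far these 2 levels rest on single barcodes was not tested. The part of other cells' RNA in the genes counted as higher was not tested. Per UMI outside haemoglobin, the levels of Alas2, Ahsp and Slc4a1 were higher below the limit than above it in each library. For Slc4a1 these were 801 against 75.5 CPM at P1, 1248 against 214 CPM at P7 and 4205 against 1599 CPM at P14. With the 88, 291 and 54 barcodes that had fewer than 3 markers of every other type, 67 of 79, 59 of 77 and 70 of 85 erythroid genes were higher. Of all genes compared, 11.6%, 4.42% and 14.3% were higher with these barcodes, a choice made after seeing the data.

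The 4 haemoglobin genes did not keep the same proportions in all libraries. Hba-a2, an alpha-globin gene summed over its 2 rows, held 43.7% of the haemoglobin UMIs of these barcodes at P1 (43.5 to 43.9), 32.8% at P7 (32.7 to 32.9) and 39.8% at P14 (39.6 to 40.04). LOC103694857 held 39.0%, 46.7% and 46.6%, and LOC689064 held 14.2%, 16.9% and 12.1%. Hbb held the least, with 3.11%, 3.65% and 1.46%. Alpha-type and beta-type genes in the rat have near-identical copies, so the reads of a pair of copies may be split among them or lost in counting, and the levels of single copies are uncertain. Hba-a3 added 926 UMIs at P1, 6834 at P7 and 1136 at P14, or 0.270%, 0.411% and 0.647% of all haemoglobin UMIs. In single barcodes the Hba-a2 share had a median of 43.3% at P1, 31.4% at P7 and 39.9% at P14, with ranges of 24.0% to 89.3%, 1.49% to 95.5% and 27.4% to 56.9%.

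Embryonic globins were nearly absent. Hbe1, an epsilon-type gene of the embryonic yolk sac, had 166 UMIs in the P1 haemoglobin-rich barcodes, 10 at P7 and 0 at P14. Of the P1 UMIs, 124 lay in a single barcode with 635 genes, 27 in another with 163 genes and 13 in one more with 167 genes, where they were 3.04%, 4.08% and 0.581% of all UMIs. Hbz, the embryonic alpha-type gene, had 1 UMI at P1 and 0 at P7 and P14, and Hbe2 had 0 at each stage. The Hbe1 UMIs of P1 thus lie in few barcodes, 5 of 122 in all.

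At P7 a group of barcodes carried little Hba-a2. In 52 of 384 barcodes it held 15% or less of the haemoglobin UMIs, while no barcode at P1 or P14 was that low; this cut was set after the values were seen. Summed over the 52, LOC103694857 held 58.5%, LOC689064 28.7%, Hba-a2 7.61% and Hbb 5.20%. They held few haemoglobin UMIs, from 142 through a median of 399 to 1538, against a median of 5124 in the other 332 haemoglobin-rich barcodes of P7, and 46 of the 52 had 500 genes or fewer. Alas2 and Alox15 had 0 UMIs among 36797 UMIs outside the rule, which allows up to 81.5 CPM, and Tmcc2 and Klf1 had 0 as well. Ahsp was present, with 81 UMIs in 24 of the 52 (2201 CPM), and Fth1 had 582 UMIs (15883 CPM, against 9831 CPM in the other 332). Prdx2 was at 2975 CPM and Car2 at 682 CPM, against 7326 and 2663 CPM in the 332. The median mitochondrial share was 6.69% in the 52 and 1.56% in the 332.

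**Figure D4:**
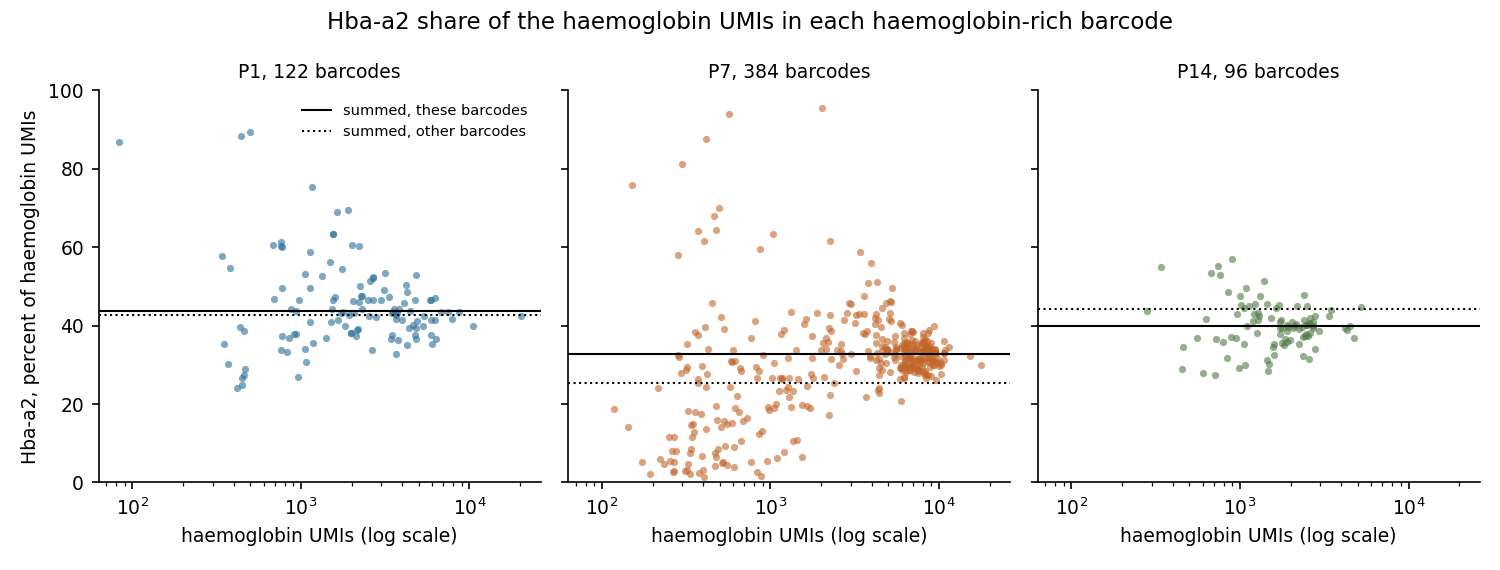
Percent of haemoglobin UMIs on Hba-a2 against the haemoglobin UMIs (log scale) for each haemoglobin-rich barcode, with 1 panel per library; the solid line is the share summed over these barcodes (43.7%, 32.8% and 39.8%) and the dotted line that of all other barcodes (42.7%, 25.4% and 44.2%). At P7 a cloud of barcodes with few haemoglobin UMIs lies under 15%, which has no counterpart at P1 or P14, and most barcodes with many lie near the solid line.

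Haemoglobin RNA was also spread over the barcodes outside the rule. At P1, 56.0% of the other 13946 barcodes had at least 1 haemoglobin UMI, at P7 95.5% of 14117 and at P14 65.4% of 6262. With each barcode thinned to 500 UMIs, to set depth equal, these shares were 8.14% (7.69 to 8.60), 32.6% (31.9 to 33.4) and 32.1% (31.0 to 33.3), so that P14, with a median of 1463.5 UMIs against 6494 at P1 and 6522 at P7, was close to P7. The level, as a share of all UMIs of the other barcodes, was 629.7 CPM (625 to 634) at P1, 773 CPM (767 to 778) at P7 and 999 CPM (981 to 1017) at P14.

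These levels depended on few barcodes with shares between 1% and 10%. At P1, 37 such barcodes held 80.2% of the haemoglobin UMIs outside the rule, at P7 193 barcodes held 25.2% and at P14 14 barcodes held 38.0%. In barcodes under 1% the level was 126 CPM (124 to 128) at P1, 581 CPM (576 to 586) at P7 and 624 CPM (609.9 to 638) at P14. The 37 barcodes at P1 had a median of 3022 genes, 13 had 5000 genes or more and 20 had 3 or more endothelial markers, and they held 101 Alas2 UMIs (104 CPM). Those of P7 were small, with a median of 430 genes and 121 of 193 at 500 genes or fewer, and held 9 Alas2 UMIs (17.4 CPM).

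By marker list, the level under 1% lay in a narrow range in most cell types of a library. At P7 it ran from 551 CPM in endothelial barcodes (518 to 585), 554 CPM in mesenchyme, 564 CPM in pericytes and smooth muscle and 585 CPM in glia to 743 CPM in cochlear epithelium (682 to 807) and 803 CPM in macrophages (755 to 853). The interval of endothelial barcodes overlaps those of mesenchyme, of pericytes and smooth muscle and of glia, while the intervals of macrophages and epithelium lie above all 4. Depth differed too, with a median of 4186.5 UMIs in these macrophages and 3144 in epithelium, against 6021 to 7189 in the other 4. At P14 the level ran from 299 CPM in B cells (253 to 350) to 723 CPM in endothelial barcodes (682 to 765), with 586 CPM in glia, 641 CPM in mesenchyme and 718 CPM in macrophages. The B cell barcodes had a median of 4382.5 UMIs and the endothelial ones 1070.5. At P1 the level was 89.7 CPM in neurons, 90.3 CPM in macrophages, 115 CPM in mesenchyme, 131 CPM in pericytes and smooth muscle, 133 CPM in cochlear epithelium and 146 CPM in glia, and 450.2 CPM (427 to 475) in endothelial barcodes. These endothelial barcodes had the highest median of UMIs among the lists at P1, 9889.5. The part of depth in the differences between lists was not tested. Over all shares under 10%, the P1 endothelial barcodes reached 8422 CPM (8326 to 8518), with 29663 haemoglobin and 58 Alas2 UMIs in 206 barcodes. The median endothelial barcode of P1 held 1 haemoglobin UMI, so the level rests on few of them, and 192 of the 206 lay under 1%.

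**Figure D5:**
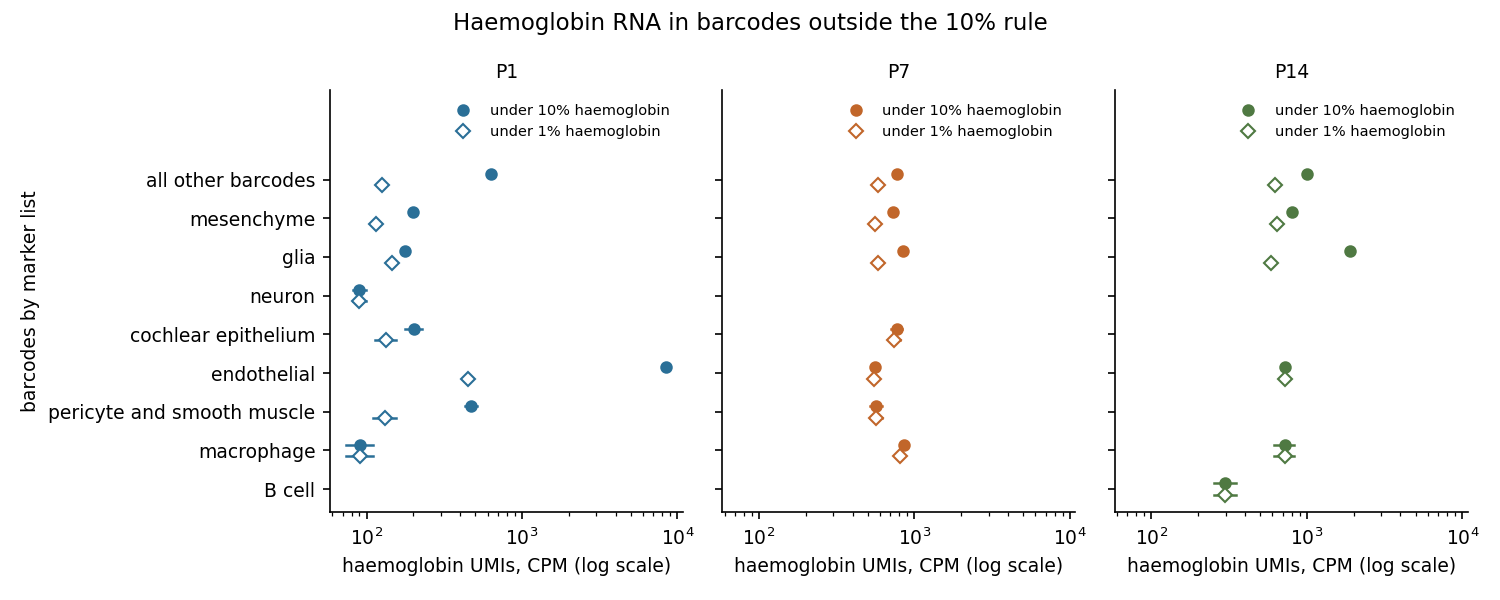
Haemoglobin level in CPM of all UMIs (log scale) in barcodes outside the rule, by marker list, with 1 panel per library. Filled circles are for all barcodes under 10%, open diamonds for those under 1%, and bars for exact 95% Poisson intervals. A barcode belongs to a list with 3 or more genes found if no other list but mesenchyme reached 3. It belongs to mesenchyme if no other list did. At P1 the endothelial barcodes stand far to the right (8422 CPM) of the other lists, and with the limit of 1% the lists of P7 draw together between 551 and 803 CPM.

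Summed over all barcodes outside the rule, haemoglobin RNA did not hold the genes in the proportions of the selected barcodes. Hba-a2 held 42.7% (42.4 to 43.1) of it at P1, 25.4% (25.1 to 25.7) at P7 and 44.2% (43.3 to 45.1) at P14, against 43.7%, 32.8% and 39.8% in the haemoglobin-rich barcodes. At P7 the value in the other barcodes was thus 7.39 percentage points lower, and at P14 it was 4.39 points higher. The 14 barcodes of P14 between 1% and 10%, with 38.0% of this RNA, had 47.6%. In the bands of haemoglobin share under 1% the P14 value ran from 35.9% to 46.7%, so the gap depends on few barcodes. At P7 the bands under 10% ran from 23.2% to 30.8%. At P7 the share was 24.0% (23.5 to 24.5) in mesenchyme, 26.6% (26.1 to 27.1) in glia and 30.2% (27.5 to 33.0) in macrophages.

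Some barcodes with erythroid genes lay outside the rule. Of all Alas2 UMIs, 80.7% lay in haemoglobin-rich barcodes at P1, 97.5% at P7 and 94.2% at P14, and for Slc4a1 these shares were 67.6%, 94.2% and 82.0%. Ahsp gave 59.6%, 88.9% and 60.5%. At P14, Car1, a carbonic anhydrase that erythroid progenitors hold early, had only 104 of its 1001 UMIs in haemoglobin-rich barcodes, and 865 lay in 14 other barcodes with 2 UMIs or more, up to 184 in 1 barcode. Their median haemoglobin share was 0.548%, and they had a median of 3168 genes. Likewise 812 of 2188 Ahsp UMIs at P14 lay in 18 other barcodes. With at least 3 of Ahsp, Slc4a1, Car1 and Rhag present, a choice made after the values were seen, there were 13 barcodes outside the rule at P14, 1 at P1 and 0 at P7. The 13 had a median of 14440 UMIs and a haemoglobin share from 0.0620% through 0.718% to 8.84%, and the proliferation list was at 1951 CPM of all their UMIs, against 732 CPM in all other barcodes.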

How the data were processed

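Single cells of the cochlear basal membrane were captured with a 10x Genomics 3′ V3 kit in 1 library each for P1, P7 and P14, of 40 pooled rats each. The values used are raw UMI counts per gene and barcode, which the authors made with bcl2fastq and Cell Ranger (3.1.0 in the matrix header) on rat build rn6 and deposited with no limit on genes. The methods count as cells all 34927 barcodes in the files, of which 30641 pass the stated limits (over 500 but under 5000 genes, 500 UMIs or more, mitochondrial UMIs under 25%, here genes whose symbol starts with Mt-).

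The 4 haemoglobin genes were summed per barcode and barcodes at 10% or more were kept, with both rows of Hba-a2 added. Counts were summed over barcodes of a library and scaled to CPM without the haemoglobin rows. Ratios were taken for genes at 10 CPM or more in either set, and a log2 ratio of 1 was the limit for higher. A barcode was counted for a marker list with 3 or more of its genes. For haemoglobin by marker list, it was assigned to a list only if no other list but mesenchyme reached 3 genes. It was assigned to mesenchyme only if no other list did, so that mixed barcodes were left out. Genes named outside the lists were the 20 with the largest mean log2 ratio over the libraries, among genes in at least 10% of the selected barcodes of each library and with 20 UMIs or more, and exceptions are stated. The members and lists were chosen with earlier results of these data known. Intervals are exact Poisson or Clopper-Pearson intervals at 95%, and cover counting error only. Thinning drew 500 UMIs per barcode without replacement. The code was run in Python (3.11.15; pandas 2.3.3, scipy 1.17.1, numpy 2.4.6) and was tested on simulated data with 200 changed genes. Promoter sequences are from RefSeq (GRCr8), another build than that of the counts, and no coordinate was carried over. Depth was 114285848, 101264868 and 12616390 UMIs. Other limits, totals, pseudocounts and comparison barcodes were tried as alternatives. A few genes of the lists enter the counts but are not reported here by name.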

Additional observations from a re-analysis of the deposited data

Results flagged for a closer look

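Several values moved in opposite directions between libraries, and none of these differences was tested, since each stage is 1 library. Cenpf, a gene of dividing cells, had a log2 ratio of -1.19 in the haemoglobin-rich barcodes of P7 and 1.68 in those of P14. Slc2a1 had 2.74 at P1 and -1.42 at P14. The share of Hba-a2 among the haemoglobin UMIs of the other barcodes, less that in the haemoglobin-rich ones, was -0.962 percentage points at P1, -7.39 at P7 and 4.39 at P14. The same difference for LOC103694857 was 1.05 points at P1, 2.97 at P7 and -8.32 at P14.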

How the results depend on the processing

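Values are in the order P1, P7 and P14. The number of haemoglobin-rich barcodes was 40, 72 and 45 with more than 500 genes and 38, 71 and 45 past every limit, and it was 63 at P14 with a limit of 50% in place of 10%. With that limit 8, 25 and 13 were left after filtering, the median share was 86.0%, 86.5% and 87.9%, the median of genes was 172.5 at P1 and 127 at P14, and that of UMIs was 2379 at P1 and 2279 at P14. The Hba-a2 share was 44.3%, 33.1% and 39.1% with that limit, and as a mean over barcodes 45.2% at P1 and 30.3% at P7.

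Haemoglobin in the other barcodes was 249.7, 741 and 902 CPM in those past every limit, 126, 581 and 624 CPM under 1%, and 312, 1269 and 913 CPM as a mean over barcodes, where P7 stands above P14. The share with a UMI was 8.14%, 32.6% and 32.1% after thinning.

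The number of genes higher was 367, 226 and 457 as reported. It was 109, 72 and 135 with all UMIs as the total, which moved the median log2 ratio of all genes to -0.73, -1.34 and -0.83, and 108, 120 and 158 with a pseudocount of 50 CPM. It was 667 at P1 and 984 at P14 with a pseudocount of 1 CPM, and 850 at P1 and 805 at P14 with means over barcodes. It was 997, 342 and 1255 with the limit of 50%, and 2195, 2625 and 939 against other barcodes of 500 genes or fewer. In alternatives added after seeing the data, it was 1049, 377 and 1189 with only the barcodes of 500 genes or fewer, and 982, 352 and 1306 with those holding few markers of other types. Erythroid genes higher numbered 19 at P1 and 29 at P7 with all UMIs as the total, 67 at P1 with few other markers and, in an alternative added after seeing the data, 20, 37 and 42 with a pseudocount of 50 CPM. For the causes of these moves no test was made. Over all settings the 20 named genes gave 720 values, of which 716 were 1 or more and 0 were below 0, with the lowest 0.56.

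With 1 library per stage there was no replicate to leave out, and spread between animals is unknown. Genes at a few UMIs have wide intervals, and P14 has the least depth. No paired analysis was possible because no result comes from a test and each stage has 1 library.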

Other observations

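The RNA other than haemoglobin had its own make-up in the haemoglobin-rich barcodes with 500 genes or fewer. Ubb, a ubiquitin gene, and Tpt1 together held 7.46% of it at P1, 5.82% at P7 and 6.66% at P14, against 1.10%, 1.06% and 0.514% in the other barcodes. The ferritin genes held 3.35%, 3.47% and 1.53%, against 0.489%, 0.414% and 0.490%. Genes of ribosomal proteins held 18.3%, 13.5% and 8.0%, against 20.8%, 15.5% and 11.8%. The 10 most abundant genes took 19.96%, 22.7% and 21.2% of it, against 11.8%, 14.0% and 14.75% in the other barcodes. These genes were chosen after the values were seen, the values rest on 27479, 184251 and 10939 UMIs, and they are given with no explanation.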
